A study of Mus musculus with 27 samples.

Results

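The cells compared here were mouse embryonic fibroblasts (MEFs) labelled Per1-/- and Per2-/-, on day 4 of their conversion towards neurons, and they gave 6 of the 27 libraries of the study, 3 per genotype. All cells, including the wild-type (WT) cells, had been transduced with doxycycline-inducible lentiviruses for a set of neuronal transcription factors that includes Brn2 (gene Pou3f2) and Myt1l, and with the transactivator M2rtTA. Doxycycline and a neuronal medium (N3) were given from day 0, and poly(A) RNA was sequenced on days 0, 2 and 4. The mutants came from the mouse strains B6.129-Per1tm1Drw/J and B6.129-Per2tm1Drw/J, whose alleles were made in 129 cells and bred to B6 mice. Each dish of MEFs pooled 4 embryos of unrecorded sex from which head and heart had been removed, such cultures are a mixture that includes macrophages, and nothing in the sources used here says that the 3 replicates of a genotype came from separate litters, so p-values measure the spread between these libraries. Libraries were assigned to the 2 groups by their genotype and day labels. This genotype comparison had been picked for description because an earlier look at the same data found more differing genes in it than in the other genotype comparisons.

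Per1 and Per2 are core parts of the circadian clock. The factors CLOCK and BMAL1 bind E-boxes, the letters CACGTG, near the Per genes and many others and switch them on, and PER proteins together with CRY proteins then hold CLOCK and BMAL1 back, which closes a daily loop. MEF cultures hold resident macrophages, phagocytic cells of the embryo that take up dead cells, break them down in lysosomes and depend on the CSF1 receptor, and PU.1 (gene Spi1) is the master transcription factor of that lineage.

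Transcripts of both targeted genes were detected in the libraries labelled as their knockouts. The study reported by western blotting that each protein was lost in the MEFs of its own knockout, which is not analysed here. In Per1-/- cells Per1 measured 4.54, 4.59 and 4.23 FPKM (fragments per kilobase of gene length, scaled to library size) on day 4, against 5.23, 4.4 and 6.11 FPKM in the cells labelled Per2-/- and 5.62, 4.95 and 4.92 FPKM in WT cells. The Per1-/- values overlapped those of the cells labelled Per2-/-, and the log2 difference, counted as Per1-/- minus labelled Per2-/- throughout, was -0.22 with a standard error (SE) of 0.14 (95% confidence interval -0.51 to 0.07, limma adjusted p = 0.539). Per2 measured 2.37, 1.83 and 2.03 FPKM in Per1-/- cells, 2.64, 2.54 and 3.3 FPKM in the cells labelled Per2-/- and 1.6, 1.97 and 1.61 FPKM in WT cells. Every library labelled Per2-/- was above every other library in Per2, and the log2 difference was -0.43, SE 0.13 (95% confidence interval -0.69 to -0.16, limma adjusted p = 0.133). Reads outside a deleted part of a gene are counted as its transcript, and these gene totals therefore check neither deletion. The libraries are called by their labels below, as Per1-/- and as labelled Per2-/-, and each direction given below rests on those labels.

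The 6 libraries held between 15815013 and 21565355 fragments on genes, with 24026 to 25655 genes detected by at least 1 fragment and 2.04% to 3.11% of fragments from mitochondrial genes. Replicate 2 labelled Per2-/- stood apart in these factors. Pou3f2 measured 177, 154 and 123 FPKM in Per1-/- cells and 141, 429 and 184 FPKM in the libraries labelled Per2-/-, where that library was the highest of all 6, and Myt1l 0.967, 1.07 and 1.04 FPKM against 0.797, 1.52 and 0.694 FPKM. Neither factor was called (-0.58 and 0.10 on the log2 scale, limma adjusted p = 0.463 and 0.94). Xist, which is made from the inactive X chromosome of female cells, measured 0.00271, 32.4 and 28.4 FPKM in Per1-/- cells and 18.4, 56 and 33.7 FPKM in those labelled Per2-/-, so Per1-/- replicate 1 was near 0 and the other 5 were not. The part of the dose of these factors and of embryo sex in the differences below was not tested.

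Between the 2 genotypes on day 4, 83 of 14932 tested genes (0.556%) were called. Of these, 66 (0.442%) were higher in Per1-/- cells, by 1.5-fold to 6.09-fold (Cck, with a log2 difference of 1.87 without Per1-/- replicate 1) and a median of 1.91-fold, and 17 (0.114%) were lower, by 1.59-fold to 6.68-fold with a median of 2.38-fold. A gene was called when limma, fitted to log2(FPKM + 0.1) over all 27 libraries, gave a Benjamini-Hochberg adjusted p no higher than 0.05 with a log2 difference no smaller than 0.58 in size, and each fold given here is on that scale. Among the higher genes were phagocyte receptors such as Fcrls, lysosomal proteins such as Ctsc and metabolic enzymes such as Cndp2, and among the lower genes were 4 secreted proteins, of which Nts is one, and 4 transcriptional regulators, of which Foxf2 is one. For all 83 genes the values of the 3 Per1-/- libraries lay entirely on one side of the 3 labelled Per2-/-, which was also so for 2870 (19.2%) of all tested genes, 11.0% with Per1-/- cells above and 8.18% below. The 83 comprised 79 protein-coding genes and 4 others.

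The counts depended on single libraries. Without Per1-/- replicate 1 the calls were 6 higher and 0 lower, and without Per1-/- replicate 3 they were 7 and 1. Without the libraries labelled Per2-/- replicate 1 or replicate 3 they were 7 and 0, or 11 and 0, in that order. Leaving out the library with the most Pou3f2, labelled Per2-/- replicate 2, gave 56 higher and 47 lower. In 45 of the 66 higher genes Per1-/- replicate 1 was the highest library of its genotype, and in 48 replicate 2 was the lowest. Among the 17 lower genes, replicate 2 labelled Per2-/- was the lowest of its genotype in 15. Scaling each library to a common FPKM sum left 9 higher and 10 lower calls, so that 47.4% of calls were higher in place of 79.5%, with a median over all genes of -0.09 in place of 0.00 on the log2 scale. A short noncoding RNA, Gm23935, held 7.73% to 25.0% of the FPKM sum of the 6 libraries.

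**Figure D1:**
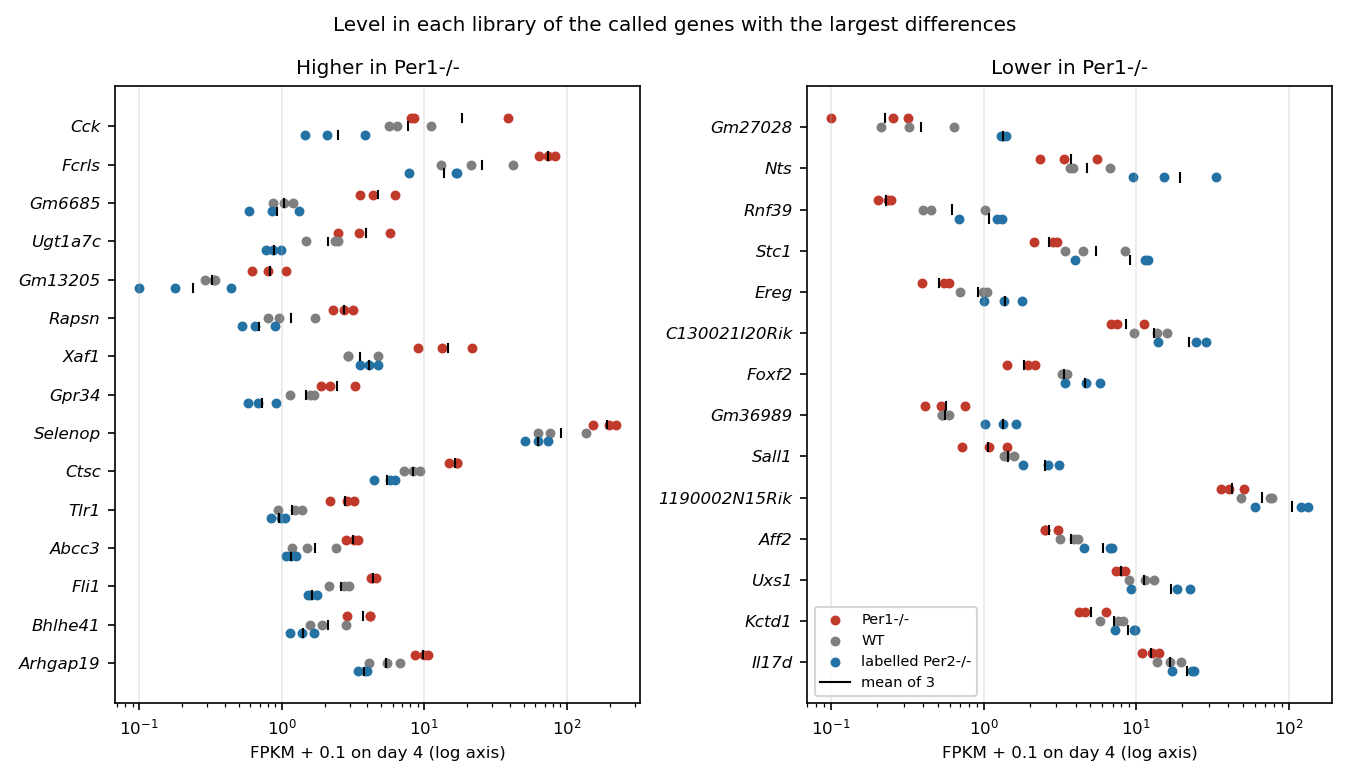
FPKM + 0.1 on day 4 (log axis) of 15 called genes with the largest differences above 0 and 14 below 0, one point per library in Per1-/- (red), WT (grey) and labelled Per2-/- cells (blue), with black ticks at the mean of 3 libraries. Red and blue points do not overlap in any row, and the WT mean lies between the means of both mutants in all rows but Xaf1 and Gm36989.

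In each of the 6 fits that left out 1 of the 6 libraries, the same 6 genes stayed called, and all were higher in Per1-/- cells. Ctsc encodes cathepsin C, a lysosomal peptidase that activates the serine proteases of immune cells (ENSMUSG00000030560, chromosome 7, 88278085 to 88310888, plus strand, GRCm38). It measured 17, 15 and 17 FPKM in Per1-/- cells and 4.38, 5.65 and 6.17 FPKM in cells labelled Per2-/-, with WT libraries at 8.21, 7.16 and 9.2 FPKM, in the gap between the mutants. The log2 difference was 1.59, SE 0.23 (limma adjusted p = 0.00224), or 3.00-fold. Ehd4 encodes an ATPase that shapes membranes for endosome traffic (ENSMUSG00000027293, chromosome 2, 120089175 to 120154606, minus strand). Its level was 32.7, 25.7 and 28.5 FPKM against 12.5, 11.6 and 12.7 FPKM, and WT libraries, at 16.1, 14.6 and 16.2 FPKM, again lay in between (log2 difference 1.23, SE 0.17, limma adjusted p = 0.00176).

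Cndp2 encodes a cytosolic dipeptidase (ENSMUSG00000024644, chromosome 18, 84667470 to 84685633, minus strand). It measured 54.1, 44.1 and 43.4 FPKM in Per1-/- cells and 21.9, 26.1 and 26.3 FPKM in cells labelled Per2-/- (log2 difference 0.93, SE 0.13, limma adjusted p = 0.0016), with no library of one genotype within the range of the other. Pla2g15, the lysosomal phospholipase A2 (ENSMUSG00000031903, chromosome 8, 106150399 to 106164715, plus strand), was the tightest of the 6, at 16.2, 16.5 and 17.9 FPKM against 10.6, 10.3 and 10.5 FPKM (log2 difference 0.68, SE 0.10, limma adjusted p = 0.00224). D2hgdh encodes the mitochondrial enzyme that clears D-2-hydroxyglutarate (ENSMUSG00000073609, chromosome 1, 93824909 to 93852348, plus strand). It measured 3.62, 3.42 and 3.76 FPKM in Per1-/- cells, 1.5, 1.45 and 1.95 FPKM in cells labelled Per2-/- and 3.83, 3.65 and 3.24 FPKM in WT cells, so that the Per1-/- libraries stood with WT and those labelled Per2-/- stood below both (log2 difference 1.11, SE 0.12, limma adjusted p = 0.000179).

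Gm6685, protein-coding by the biotype in the deposited table and a pseudogene in RefSeq (ENSMUSG00000032889, chromosome 11, 28339104 to 28339867, minus strand), showed the opposite arrangement. It measured 6.17, 3.45 and 4.25 FPKM in Per1-/- cells, 1.23, 0.749 and 0.492 FPKM in cells labelled Per2-/- and 0.771, 0.941 and 1.11 FPKM in WT cells, so that Per1-/- cells stood above both others (log2 difference 2.39, SE 0.32, limma adjusted p = 0.0016). Whether it shares reads with a near-identical copy was not tested. The 5 genes other than Gm6685 were also called in each of the other 13 fits, whereas Gm6685 missed the threshold with only the 6 libraries in the fit (log2 difference 2.39, limma adjusted p = 0.0522).

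Immune receptors and their signaling proteins formed a group of 10 called genes, all higher in Per1-/- cells, by 0.85 to 2.48 on the log2 scale. Functional groups here and below were assigned after the calls and hold called genes only, and 79.5% of all 83 calls were higher. Fcrls, an Fc receptor-like gene of macrophages and microglia, measured 82.2, 63.4 and 74.5 FPKM in Per1-/- cells and 7.79, 17 and 16.5 FPKM in cells labelled Per2-/-, the largest difference of the group (log2 difference 2.48, SE 0.52, limma adjusted p = 0.0262). Gpr34, a receptor for lysophosphatidylserine, measured 1.79, 3.17 and 2.08 FPKM against 0.58, 0.479 and 0.81 FPKM (log2 difference 1.74, SE 0.38, limma adjusted p = 0.0322), and the gene Cask overlaps it at a level that could share unstranded reads. Tlr1, which pairs with TLR2 to sense bacterial lipopeptides, measured 3.11, 2.09 and 2.79 FPKM against 0.885, 0.741 and 0.955 FPKM (log2 difference 1.51, SE 0.35, limma adjusted p = 0.0437). In each of these 3 genes the lowest Per1-/- library was more than 2-fold above the highest labelled Per2-/-. Syk, the kinase that relays signals from Fc and integrin receptors, measured 6.12, 5.09 and 6.54 FPKM against 2.44, 1.81 and 2.72 FPKM (log2 difference 1.32, SE 0.30, limma adjusted p = 0.0435), and the checkpoint protein Vsir (VISTA) 10.03, 7.84 and 9.12 FPKM against 3.66, 3.6 and 3.39 FPKM (log2 difference 1.31, SE 0.27, limma adjusted p = 0.024). Il6ra, the interleukin 6 receptor, was among the steadier genes at 4.24, 3.25 and 3.98 FPKM against 1.52, 1.48 and 1.67 FPKM (log2 difference 1.24, SE 0.20, limma adjusted p = 0.00861). The TNF receptor Tnfrsf1b (0.85), the leukocyte PI3 kinase subunit Pik3cd (1.01), the receptor phosphatase Ptprj (0.87) and the phosphoinositide binder Plekha2 (0.89) made up the rest, with log2 differences in parentheses.

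Of the 7 called transcriptional regulators, 3 were higher in Per1-/- cells. Fli1, an ETS factor of blood and endothelial lineages, measured 4.53, 4.13 and 4.19 FPKM against 1.52, 1.44 and 1.67 FPKM (log2 difference 1.42, SE 0.26, limma adjusted p = 0.0132). Maf, a bZIP factor of tissue macrophages among other cells, measured 29.3, 19.2 and 20.3 FPKM against 9.89, 11 and 12.4 FPKM (log2 difference 1.02, SE 0.21, limma adjusted p = 0.0214). Bhlhe41 (DEC2), a repressor that competes for E-boxes, was the 1 called member of 22 tested circadian clock genes, at 4.08, 2.79 and 4.04 FPKM in Per1-/- cells, 1.29, 1.04 and 1.59 FPKM in cells labelled Per2-/- and 1.83, 1.49 and 2.74 FPKM in WT cells (log2 difference 1.40, SE 0.30, limma adjusted p = 0.0324). Its lowest Per1-/- library lay above every library labelled Per2-/- and was close to the highest WT library. Of all tested genes, 0.556% were called. The clock list as a whole had a median log2 difference of -0.02, against 0.00 over all tested genes, and the clock repressor Cry2 came nearest to a call after Bhlhe41 (log2 difference 0.42, limma adjusted p = 0.0725).

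The promoter windows of 4 called genes, 250 bases before to 50 after the annotated start in RefSeq for GRCm38.p6, are printed because they hold the E-box, where the partners of PER bind, or the PU.1 letters GAGGAAGT of the macrophage factor. Capitals mark CACGTG in Bhlhe41 and Igf2r and GAGGAAGT, or ACTTCCTC as it reads on the other strand, in Ctsc and Rab32.
Bhlhe41 (chr6:145865371-145865670, minus strand): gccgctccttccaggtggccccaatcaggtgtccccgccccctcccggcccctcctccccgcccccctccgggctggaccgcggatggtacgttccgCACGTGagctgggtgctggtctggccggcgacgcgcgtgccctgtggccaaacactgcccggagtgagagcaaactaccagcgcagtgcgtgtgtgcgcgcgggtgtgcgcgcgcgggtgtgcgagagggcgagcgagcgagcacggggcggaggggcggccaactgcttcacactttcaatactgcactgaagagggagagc
Igf2r (chr17:12769657-12769956, minus strand): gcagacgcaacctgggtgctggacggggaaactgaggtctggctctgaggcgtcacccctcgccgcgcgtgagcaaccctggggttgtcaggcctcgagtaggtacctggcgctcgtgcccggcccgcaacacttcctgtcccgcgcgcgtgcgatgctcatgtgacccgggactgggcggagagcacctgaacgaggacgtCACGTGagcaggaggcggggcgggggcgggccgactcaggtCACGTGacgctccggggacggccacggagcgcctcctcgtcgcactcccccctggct
Ctsc (chr7:88277835-88278134, plus strand): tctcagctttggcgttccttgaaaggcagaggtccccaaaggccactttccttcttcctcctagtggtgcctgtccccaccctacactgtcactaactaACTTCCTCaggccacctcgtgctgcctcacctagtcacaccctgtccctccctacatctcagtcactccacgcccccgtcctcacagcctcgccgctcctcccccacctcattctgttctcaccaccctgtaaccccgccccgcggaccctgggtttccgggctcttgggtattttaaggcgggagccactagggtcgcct
Rab32 (chr10:10558158-10558457, minus strand): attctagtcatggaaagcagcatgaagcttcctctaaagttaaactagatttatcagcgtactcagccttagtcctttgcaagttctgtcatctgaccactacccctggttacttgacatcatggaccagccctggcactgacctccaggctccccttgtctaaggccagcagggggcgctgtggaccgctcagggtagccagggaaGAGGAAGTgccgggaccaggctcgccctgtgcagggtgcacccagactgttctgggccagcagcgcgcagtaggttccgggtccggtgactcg

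A window was found for 58 of the 83 called genes, and a gene with several windows was counted once, by a match in any of them. An E-box occurred in 9 of the 48 higher genes with a window (18.8%; Abca1, Adam19, Bhlhe41, Cck, Igf2r, Il6ra, Lgmn, Pdxk and Tlr1) and in 0 of the 10 lower genes with one, against 8.09% of all genes with a window and 11.5% of the 10343 tested genes with a window. The letters GAGGAAGT on either strand, a search added after the values were seen, occurred in 7 of these 48 higher genes (14.6%; Ctsc, Rab32, Renbp, Rftn1, Selenop, Tlr1 and Tspan14) and in 1 of the 10 lower genes (Foxf2), against 3.69% of all genes with a window and 3.53% of the tested genes with a window. CACGTG reads the same on both strands and shares no position with GAGGAAGT in these windows. A match of letters is no evidence that a factor binds there, and these shares carry no test.

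Proteins of the lysosome, endosomes and vesicles gave 12 called genes, again all higher in Per1-/- cells (0.60 to 1.59 on the log2 scale). Besides Ctsc, Ehd4 and Pla2g15 they included Lgmn, the asparaginyl endopeptidase legumain, at 156, 106 and 135 FPKM against 76, 58.7 and 80.1 FPKM (log2 difference 0.88, SE 0.21, limma adjusted p = 0.0488). Igf2r, the mannose 6-phosphate receptor that carries new hydrolases to lysosomes and clears IGF2, measured 121, 107 and 125 FPKM against 73.6, 80.3 and 69.97 FPKM (log2 difference 0.66, SE 0.11, limma adjusted p = 0.013). Rab32, a GTPase of lysosome-related organelles, measured 23.2, 17.4 and 20.1 FPKM against 12.5, 11.9 and 14 FPKM (log2 difference 0.65, SE 0.15, limma adjusted p = 0.0475). These 3 genes were above 11 FPKM in each of the 6 libraries and differed by less than 2-fold, with no overlap between the genotypes. The other 6 were the ARF GTPase-activating protein Adap2 (1.35), the calcium sensor of exocytosis Doc2b (1.26), the folliculin partner Fnip2 (0.72), the tetraspanin Tspan14 (0.62), the vesicle motor Myo5a (0.61) and the lysosomal ATPase Atp13a2 (0.60). Among 66 tested genes of a lysosome list, 3 were called, all higher (Ctsc, Lgmn and Pla2g15), 28 were higher and 1 lower at an unadjusted p under 0.05, and the median log2 difference was 0.23. Over all tested genes, 0.442% were called higher, and 7.95% were higher and 5.27% lower at that p.

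Secreted proteins went both ways, with 4 of 8 higher and 4 lower in Per1-/- cells. Cck, the peptide cholecystokinin, measured 38.6, 8.45 and 8.01 FPKM in Per1-/- cells and 1.99, 3.76 and 1.37 FPKM in cells labelled Per2-/- (log2 difference 2.61, SE 0.54, limma adjusted p = 0.0237). Its fold was 6.09, but without Per1-/- replicate 1 the log2 difference was 1.87 and Cck was not called (limma adjusted p = 0.172). It was called in 2 of the 6 fits that left out 1 library and in 6 of the other 13 fits. Replicate 1 was far above the other 2 Per1-/- replicates, which were near the WT libraries at 5.58, 6.34 and 11 FPKM. Selenop, the selenium carrier of plasma, measured 198, 153 and 223 FPKM against 51.3, 73.7 and 62.4 FPKM (log2 difference 1.61, SE 0.37, limma adjusted p = 0.0447). Igf1, a growth factor that macrophages and fibroblasts secrete, measured 17.1, 15.2 and 18.5 FPKM in Per1-/- cells, 5.3, 8.89 and 7.47 FPKM in cells labelled Per2-/- and 11, 14.5 and 12.6 FPKM in WT cells (log2 difference 1.25, SE 0.27, limma adjusted p = 0.0308). WT libraries thus lay between both mutants in Igf1, without overlap. Tgfb1, the cytokine TGF-beta 1, measured 18.9, 12.5 and 16.9 FPKM against 9.36, 9.54 and 9.61 FPKM (log2 difference 0.74, SE 0.14, limma adjusted p = 0.0191).

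The 4 secreted proteins that were lower in Per1-/- cells were a peptide, a hormone, a growth factor and a cytokine. Nts, the peptide neurotensin, measured 5.45, 2.26 and 3.27 FPKM in Per1-/- cells, 9.38, 33.1 and 15 FPKM in cells labelled Per2-/- and 3.73, 3.56 and 6.64 FPKM in WT cells (log2 difference -2.25, SE 0.50, limma adjusted p = 0.0357). Here the Per1-/- and WT libraries overlapped, and the highest value came from replicate 2 labelled Per2-/-, the library with the most Pou3f2. Stc1, the glycoprotein hormone stanniocalcin 1, measured 2.92, 2.04 and 2.74 FPKM against 11.3, 3.85 and 11.9 FPKM (log2 difference -1.62, SE 0.36, limma adjusted p = 0.0357), and there replicate 2 was the lowest of those labelled Per2-/-. Ereg, the EGF receptor ligand epiregulin, measured 0.294, 0.49 and 0.447 FPKM against 1.68, 0.901 and 1.25 FPKM (log2 difference -1.42, SE 0.30, limma adjusted p = 0.0295), and Il17d, a member of the interleukin 17 family, 13.9, 12.6 and 10.9 FPKM against 23.9, 17.1 and 23.2 FPKM (log2 difference -0.77, SE 0.18, limma adjusted p = 0.0484).

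Metabolic enzymes, transporters and channels were the largest group of called genes, with 13 of 14 higher in Per1-/- cells (79.5% of all calls were higher). Ugt1a7c, a UDP-glucuronosyltransferase that conjugates lipophilic compounds for excretion, measured 5.66, 2.4 and 3.38 FPKM against 0.883, 0.769 and 0.68 FPKM, with WT libraries at 2.39, 1.38 and 2.26 FPKM, and the gene shares exons with other members of its cluster (log2 difference 2.08, SE 0.39, limma adjusted p = 0.0159). The ABC transporter of conjugates Abcc3, whose substrates include glucuronides, measured 3.33, 2.72 and 3.11 FPKM against 1.06, 0.971 and 1.17 FPKM (log2 difference 1.43, SE 0.32, limma adjusted p = 0.0357). Both genes were thus higher in every Per1-/- library than in any labelled Per2-/-. The remaining higher genes were the phosphodiesterase Pde1b (1.07), the renin-binding epimerase Renbp (0.96), the potassium channel Kcnk6 (0.77), the polyamine oxidase Paox (0.74), biliverdin reductase Blvra (0.73), pyridoxal kinase Pdxk (0.68), glucosamine-6-phosphate deaminase Gnpda1 (0.61), the mannosidase Man1c1 (0.59), and glutamine synthetase Glul (0.59), beside Cndp2 and D2hgdh. Uxs1, which makes UDP-xylose for proteoglycans, was the single lower gene, at 7.89, 8.28 and 7.26 FPKM against 22.6, 9.12 and 18.5 FPKM (log2 difference -0.99, SE 0.20, limma adjusted p = 0.0218), with replicate 2 labelled Per2-/- only just above the Per1-/- libraries.

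All 4 called genes of lipid handling were higher in Per1-/- cells. Abca1, which exports cholesterol to apolipoproteins, measured 24.3, 19.9 and 23.5 FPKM against 12.4, 12.7 and 10.9 FPKM (log2 difference 0.90, SE 0.18, limma adjusted p = 0.0206). The others were the lysophospholipid acyltransferase Lpcat2 (1.13), the lipid raft protein Rftn1 (0.77) and the lysoplasmalogenase Tmem86a (0.74). Of 29 tested genes of cholesterol synthesis and efflux only Abca1 was called (0.556% of all tested genes were called), and the list had a median log2 difference of -0.18.

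Adhesion and cytoskeletal proteins gave 9 higher and 2 lower genes, where 79.5% of all calls were higher. Arhgap19, a GTPase-activating protein, measured 9.83, 8.58 and 10.6 FPKM in Per1-/- cells and 3.36, 3.9 and 3.75 FPKM in cells labelled Per2-/- (log2 difference 1.37, SE 0.24, limma adjusted p = 0.013), the largest difference of the group. The integrin subunits Itga9 (0.94) and Itgb3 (0.80), the actin regulators Cotl1 (0.77), Mtss1 (0.72) and Efhd2 (0.70), the scaffolds Frmd4b (1.11) and Akap12 (1.03), and the metalloprotease Adam19 (0.58) were higher too. Rac3, a small GTPase of neurons, was lower at 5.41, 6.77 and 7.06 FPKM against 11.2, 8.89 and 10.5 FPKM (log2 difference -0.66, SE 0.13, limma adjusted p = 0.0214), as was the catenin-like Ctnnal1 (-0.71). Among kinases, phosphatases and ubiquitin ligases, the ERK phosphatase Dusp6 (0.86), the ligases Znrf2 (0.66) and Wwp1 (0.63), and the kinase Sik1 (0.65) were higher. The RING finger protein Rnf39 was lower, at 0.135, 0.102 and 0.147 FPKM against 1.22, 0.585 and 1.13 FPKM (log2 difference -2.19, SE 0.48, limma adjusted p = 0.0355).

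A gene of the interferon response was also higher in Per1-/- cells. Xaf1, an interferon-induced protein that opposes the apoptosis inhibitor XIAP, measured 21.6, 13.2 and 8.98 FPKM in Per1-/- cells, 3.44, 4.01 and 4.66 FPKM in cells labelled Per2-/- and 2.84, 4.66 and 2.84 FPKM in WT cells (log2 difference 1.75, SE 0.33, limma adjusted p = 0.017). The Per1-/- libraries alone were high, and the other 6 overlapped. Among 55 tested interferon-stimulated genes Xaf1 was the only call, 9 were higher and 0 lower at an unadjusted p under 0.05 (7.95% and 5.27% of all tested genes), and the median log2 difference was 0.11. A single call can be set beside the 0.556% of all tested genes that were called. A further 2 higher genes stood alone in their groups, Rapsn, which clusters acetylcholine receptors at the nerve-muscle synapse, at 2.64, 2.18 and 3.05 FPKM against 0.797, 0.423 and 0.548 FPKM (log2 difference 2.00, SE 0.39, limma adjusted p = 0.0191), and the RNA-binding protein Rbm47 (1.08).

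Among transcriptional regulators, 4 were lower in Per1-/- cells. Foxf2, a forkhead factor of mesenchyme under epithelia, measured 1.85, 2.07 and 1.32 FPKM in Per1-/- cells, 4.61, 3.29 and 5.71 FPKM in cells labelled Per2-/- and 3.15, 3.42 and 3.26 FPKM in WT cells (log2 difference -1.32, SE 0.25, limma adjusted p = 0.0165). WT libraries lay above all Per1-/- libraries and close to the lowest labelled Per2-/-. Sall1, a zinc finger factor of kidney and limb, measured 1.32, 0.977 and 0.617 FPKM against 3, 1.71 and 2.54 FPKM (log2 difference -1.25, SE 0.29, limma adjusted p = 0.0471), and Aff2, a protein of the super elongation complex family on the X chromosome, 2.41, 2.95 and 2.43 FPKM against 6.79, 4.42 and 6.62 FPKM (log2 difference -1.14, SE 0.19, limma adjusted p = 0.0119). The repressor Kctd1 differed by -0.82. In a list of 41 tested transcription factors of limb and body axis, Foxf2 was the 1 called gene (0.114% of all tested genes were called lower), 3 genes were higher and 8 lower at an unadjusted p under 0.05 (7.95% and 5.27% of all tested genes), and the median log2 difference was 0.15. Lmx1b, the dorsal limb factor, came close to the threshold at 2.12, 5.16 and 3.36 FPKM against 11.3, 6.27 and 16.2 FPKM (log2 difference -1.62, limma adjusted p = 0.0507). Hoxa13, of the distal limb, measured 4.05, 10.1 and 6.62 FPKM against 40.5, 10.9 and 26.5 FPKM (log2 difference -1.80, limma adjusted p = 0.15), and in both genes replicate 2 labelled Per2-/- was the lowest of its genotype.

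For 7 called genes no function is given here, 3 of them higher and 4 lower. The lincRNA Gm27028 had the largest difference of the lower genes, at 0, 0.154 and 0.22 FPKM in Per1-/- cells and 1.24, 1.2 and 1.3 FPKM in cells labelled Per2-/- (log2 difference -2.74, SE 0.64, limma adjusted p = 0.0471), on few fragments. The antisense transcript C130021I20Rik measured 6.77, 11.1 and 7.36 FPKM against 24.5, 13.7 and 28.3 FPKM, and 1190002N15Rik 36.1, 50.5 and 40.6 FPKM against 134, 59.8 and 120.5 FPKM (log2 differences -1.36 and -1.23). Gm13205, Tmem268 and Gm36989 differed by 2.03, 0.76 and -1.26. Reads had no strand, and 13 of the 83 called genes overlap another gene with a level of at least 10% of their FPKM, among them Gm13205 with Casz1 and Gm36989 with Matr3, so that their reads could not be told apart.

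Genes that mark macrophages had the largest median difference of all lists. The summed level of the 57 macrophage markers was 2893, 1701 and 2821 FPKM in Per1-/- replicates 1 to 3 and 815, 685 and 1105 FPKM in those labelled Per2-/-, with 1193, 879 and 1461 FPKM in WT cells. Per1-/- libraries were thus above all others, with replicate 2 the lowest of the 3. Of 48 tested markers, 47 were higher on average in Per1-/- cells, 43 had no overlap between the genotypes (11.0% of all tested genes did not overlap in that direction), and the median log2 difference was 1.35. None of the 48 was called by limma over 27 libraries, 37 had an unadjusted p under 0.05 in that direction (7.95% of all tested genes), and the counts of called markers were 28 with only the 9 libraries of day 4, 21 with voom weights and 33 with voom weights on day 4 alone. In bulk RNA, more macrophages and more marker RNA per macrophage cannot be told apart.

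Single macrophage genes were arranged in the same way. Adgre1, which encodes the surface protein F4/80, measured 54.1, 37.3 and 42.9 FPKM in Per1-/- cells and 14.5, 13.8 and 19.6 FPKM in cells labelled Per2-/- (log2 difference 1.48, 95% confidence interval 0.46 to 2.51, limma adjusted p = 0.175). Csf1r, the receptor that macrophages need to survive, measured 79.1, 54.7 and 72.5 FPKM against 25.7, 18.6 and 22.5 FPKM (log2 difference 1.62, limma adjusted p = 0.165). The complement subunit C1qa measured 135, 102 and 117 FPKM against 25, 28.3 and 42.8 FPKM (1.91, limma adjusted p = 0.186), and the oxidase subunit Cybb 10.8, 10.5 and 12.7 FPKM against 3.44, 3.54 and 3.68 FPKM (1.64, limma adjusted p = 0.148). In these 4 genes every Per1-/- library was above every library labelled Per2-/-, yet none was called. Itgam, the CD11b integrin, measured 4.52, 2.26 and 3.48 FPKM against 1.54, 1.15 and 1.76 FPKM (1.12, limma adjusted p = 0.362), and the cytokine Tnf 3.32, 0.822 and 2.12 FPKM against 0.985, 0.873 and 0.889 FPKM (0.91, 95% confidence interval -0.36 to 2.19, limma adjusted p = 0.572), with overlap between the genotypes for Tnf.

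Fewer genes were called when the macrophage marker level was added to the fit. With the mean of the markers in each library as a covariate in the limma fit, 9 genes were called higher and 1 lower, and the median log2 difference of the 66 higher genes was 0.71 in place of 0.94, with 8 of them still called. That of the 17 lower genes was -1.16 in place of -1.25, with 1 still called. The genes called in that fit were Ctsc, Ehd4, Cndp2, Pla2g15, D2hgdh, Gm6685, Xaf1 and Igf2r of the 66, Ereg of the 17, and Gm42778, which was not called without the covariate. The covariate is itself made from the libraries it adjusts, and the part of macrophages in the called genes was not tested.

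**Figure D2:**
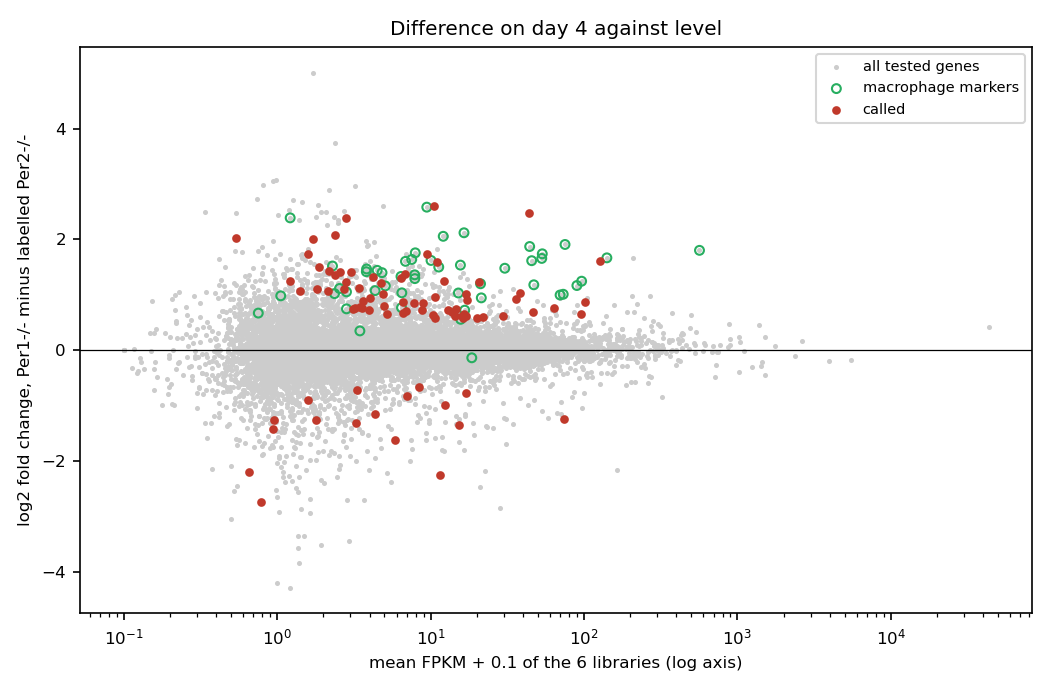
Log2 difference between Per1-/- cells and cells labelled Per2-/- on day 4 against the mean FPKM + 0.1 of the 6 libraries (log axis), for all 14932 tested genes (grey), the 83 called genes (red) and the 48 tested macrophage markers (green rings). Of the rings, 47 lie above the line at 0 and none is filled red, and the called genes lie between -2.74 and 2.61.

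Markers of other cell types had medians nearer to 0 than the 1.35 of the macrophage markers. The 21 tested fibroblast markers had a median log2 difference of 0.14, 0 calls by limma with 2 higher and 1 lower at an unadjusted p under 0.05, 1 call with voom weights, and a summed level of 5890 to 6464 FPKM in Per1-/- cells and 5403 to 6650 FPKM in cells labelled Per2-/-. Fibroblast genes were thus abundant in both genotypes, as the label of the cells says. The 29 neuron markers had a median of 0.01, 0 calls by limma or with voom weights, and 0 at an unadjusted p under 0.05 in either direction. Their summed level was 366 to 495 FPKM against 300 to 525 FPKM. Of the lymphocyte markers and of those of mast cells and neutrophils none reached the filter on low values, with summed levels under 2 FPKM in each of the 6 libraries. The 5 tested epithelial markers had a median of -0.86, with 0 of 5 higher on average in Per1-/- cells, and the 9 of Schwann cells and oligodendrocytes had one of 0.34, with 9 of 9 higher. Both had 0 calls by limma or with voom weights, 0 genes at an unadjusted p under 0.05 and 0 genes without overlap. The 21 skeletal muscle markers had a median of 0.43, with 7 genes above and 2 below without overlap, 1 higher at an unadjusted p under 0.05, 0 calls by limma and 1 with voom weights. Of all tested genes, 11.0% lay above and 8.18% below without overlap, and 7.95% were higher and 5.27% lower at that p. The part of these cell types in the called genes was not tested.

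Lists of phagocyte functions also had medians above 0. They are not independent of the marker list, since Irf8 is in it and in the list of macrophage lineage factors. Of 41 tested genes of phagocytosis and Fc receptors, 1 was called (Syk), 25 were higher and 1 lower at an unadjusted p under 0.05, and the median log2 difference was 1.02. Of 24 genes of lipid metabolism in phagocytes, 1 was called (Abca1), 14 were higher and 0 lower at that p, and the median was 0.75. The list of macrophage lineage factors and the CSF1 axis had 17 tested genes, 1 call (Maf), 10 higher at that p and a median of 0.63. Shares over all tested genes were 0.442% called higher, and 7.95% higher and 5.27% lower at that p.

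Cytokine and signaling lists lay nearer to the median of all genes. For the counts that follow, the shares over all tested genes were 0.556% called, and 7.95% higher and 5.27% lower at an unadjusted p under 0.05. Of 26 inflammatory cytokines and chemokines, 0 were called by limma or with voom weights over 27 libraries, 2 were higher at an unadjusted p under 0.05 and the median was 0.21, while 1 was called with voom weights on day 4 alone. Of 30 genes of TNF and NF-kB signaling, Tlr1 and Tnfrsf1b were called and the median was 0.16. Among 18 tested genes of the IGF axis, Igf1 and Igf2r were called higher and Stc1 lower, with a median of 0.15. Of 42 genes of TGF-beta, BMP and activin signaling only the ligand Tgfb1 was called, and 5 were higher and 8 lower at an unadjusted p under 0.05. Axon guidance, with 55 tested genes, had 0 calls by limma and 6 higher and 7 lower at that p, and 1 call with voom weights on day 4 alone. Of 34 mitosis genes, 1 was higher on average in Per1-/- cells and the median was -0.22, and 0 had an unadjusted p under 0.05 or a call by limma or with voom weights. In all, 17 of the 83 called genes belonged to any of the 46 lists, and 13 lists held a call.

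**Figure D3:**
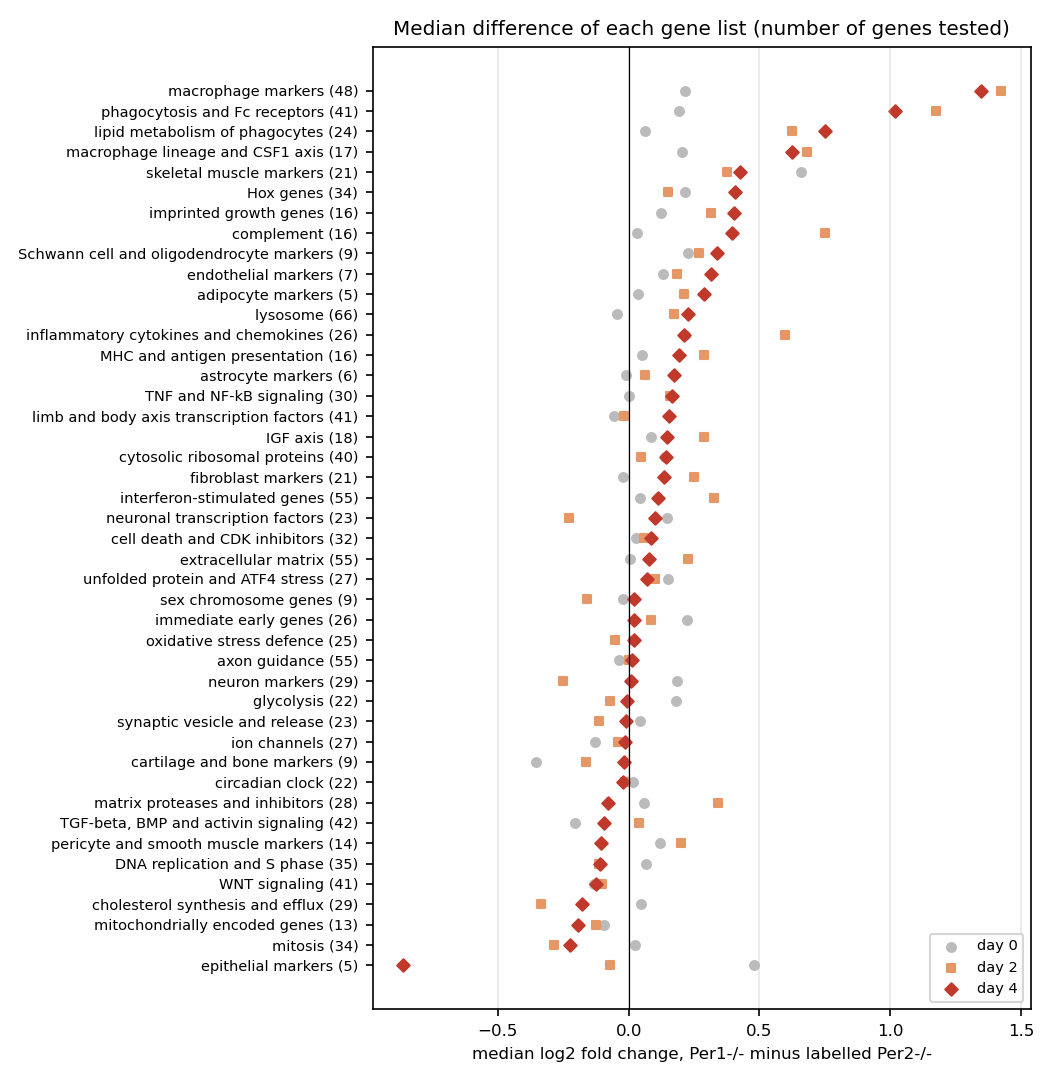
Median log2 difference between Per1-/- cells and cells labelled Per2-/- over the tested members of each gene list (number in parentheses) on day 0 (grey circles), day 2 (orange squares) and day 4 (red diamonds). Macrophage markers have the highest median on day 4, 1.35, and on day 2, 1.42, against 0.21 on day 0, and most other lists lie near 0.

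The called genes were also set against the WT libraries of day 4. The WT mean lay between those of the mutants for 65 of the 66 higher genes and 16 of the 17 lower genes. The 66 had a median log2 difference of 0.62 for Per1-/- against WT and -0.32 for labelled Per2-/- against WT, and the 17 had -0.49 and 0.65. The genes were chosen for a difference between the mutants, which by itself favours a WT mean between them, and no share over all tested genes is given. Both comparisons share the WT libraries, and each shares libraries with the comparison that chose the genes. These counts and medians are therefore a description. Called over all tested genes were 4 for Per1-/- against WT (0.0268%), which were Cndp2, Xaf1 and Gm6685 higher and the mitochondrial transfer RNA mt-Tw lower, and 1 for labelled Per2-/- against WT (0.00670%). That 1 gene was D2hgdh, which was lower in the cells labelled Per2-/- (log2 difference -1.09, limma adjusted p = 0.00022) and differed by 0.01 between Per1-/- and WT cells.

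Fewer genes were called in the same contrast on the earlier days. Between Per1-/- cells and cells labelled Per2-/-, 11 genes (0.0737%) were called on day 2 and 3 (0.0201%) on day 0. The median log2 difference of the 66 higher genes was 0.14 (day 0), 0.64 (day 2) and 0.94 (day 4), and that of the 17 lower genes was -0.27, -0.51 and -1.25, where the last value of each chose the genes. On day 2, 65 of the 66 and all 17 had the sign of day 4, and on day 0, 46 and 16. Of the 66, 7 were also called on day 2 (Ctsc, Ehd4, Xaf1, Tmem268, D2hgdh, Gm6685 and Il6ra) and 2 on day 0 (D2hgdh and Gm6685).

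A test of the change between days was made over all genes. The difference of day 4 minus that of day 0 passed the threshold for 0 genes by limma, with 895 (5.99%) at an unadjusted p under 0.05 and 0 calls with voom weights, and that of day 4 minus day 2 for 0 genes, with 265 (1.77%) and 0. A change with day was therefore not shown for any single gene with these thresholds. Both genes that were also called on day 0 kept their direction on all days. In Gm6685 the 3 Per1-/- libraries of day 0 measured 5.82 to 6.54 FPKM, those labelled Per2-/- 0.76 to 1.41 FPKM and WT 0.913 to 1.77 FPKM, and the log2 differences between the mutants were 2.43, 1.99 and 2.39 on days 0, 2 and 4. In D2hgdh they were 0.72, 1.11 and 1.11, with day 0 levels of 2.05 to 2.60 FPKM in Per1-/- cells and 1.25 to 1.38 FPKM in those labelled Per2-/-.

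Xaf1 went from low to higher levels over the days in all genotypes. On day 0 it measured 1.22 to 2.57 FPKM in Per1-/- cells and 0.291 to 0.905 FPKM in those labelled Per2-/-, and on day 2 it measured 7.56 to 11.9 FPKM against 1.37 to 2.29 FPKM, with log2 differences of 1.69 and 2.24. The genotypes were thus apart on all 3 days, although day 0 was not called. Fcrls, by contrast, overlapped on day 0, at 6.29 to 29.3 FPKM against 3.36 to 13.4 FPKM, and was apart on day 2, at 36.9 to 51.3 FPKM against 7.30 to 11.7 FPKM. Cck, Ctsc and Ehd4 also overlapped between the genotypes on day 0. Nts was near 0 in all genotypes on day 0, at no more than 0.052 FPKM, and on day 2 measured 0.242 to 1.89 FPKM in Per1-/- cells against 3.40 to 6.91 FPKM in those labelled Per2-/-.

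**Figure D4:**
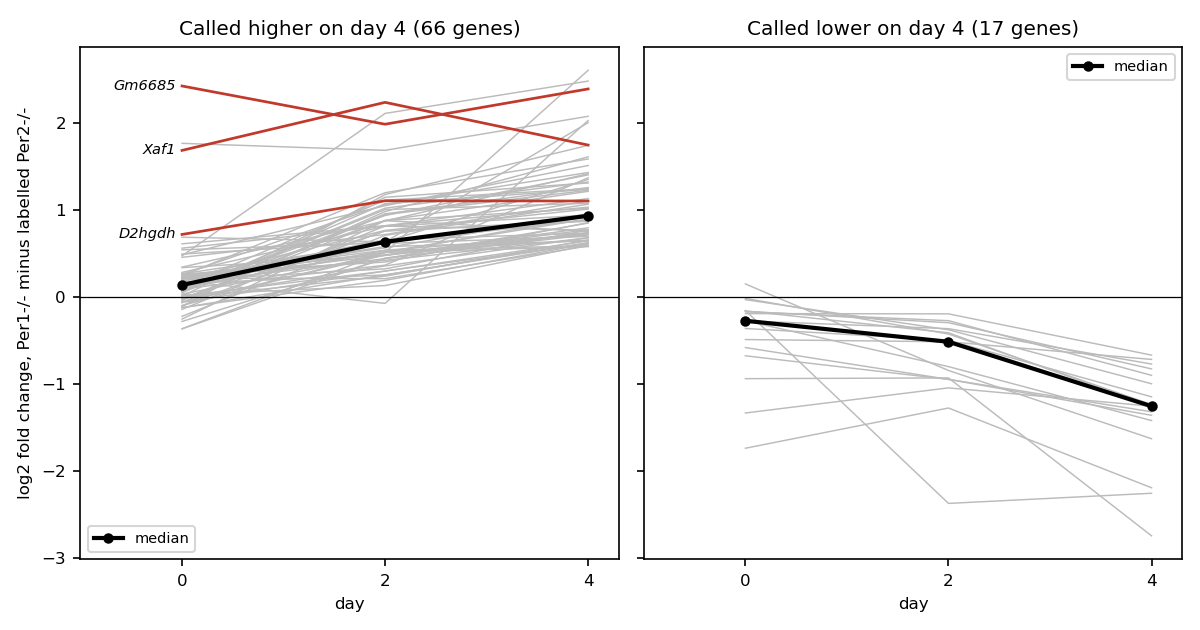
Log2 difference between Per1-/- cells and cells labelled Per2-/- on days 0, 2 and 4, one grey line per gene called higher (left, 66 genes) or lower (right, 17 genes) on day 4, with the median in black and Gm6685, Xaf1 and D2hgdh in red. The medians go from 0.14 to 0.94 and from -0.27 to -1.25, and the day 4 values are those by which the genes were chosen.

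Genes near the targeted loci were counted because the mutant alleles came from 129 cells. Within 20 Mb of the start of Per1 (chromosome 11, 69095217 to 69109960, plus strand), 3 of 507 tested genes were called (0.592%, against 0.556% of all genes), which were Xaf1 at 3.21 Mb, Doc2b at 6.67 Mb and Adap2 at 11.1 Mb. Of these, Xaf1 was also called against WT cells. Within 20 Mb of the start of Per2 (chromosome 1, 91415982 to 91459324, minus strand), 2 of 165 tested genes were called (1.21%), which were Ugt1a7c at -3.32 Mb and D2hgdh at 2.41 Mb. Gm6685 lies on the chromosome of Per1 but 40.8 Mb away. At an unadjusted p under 0.05, 12.8% of the genes near Per1 and 15.2% of those near Per2 differed, against 13.2% of all genes. The part of 129 sequence around the alleles in these values was not tested.

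**Figure D5:**
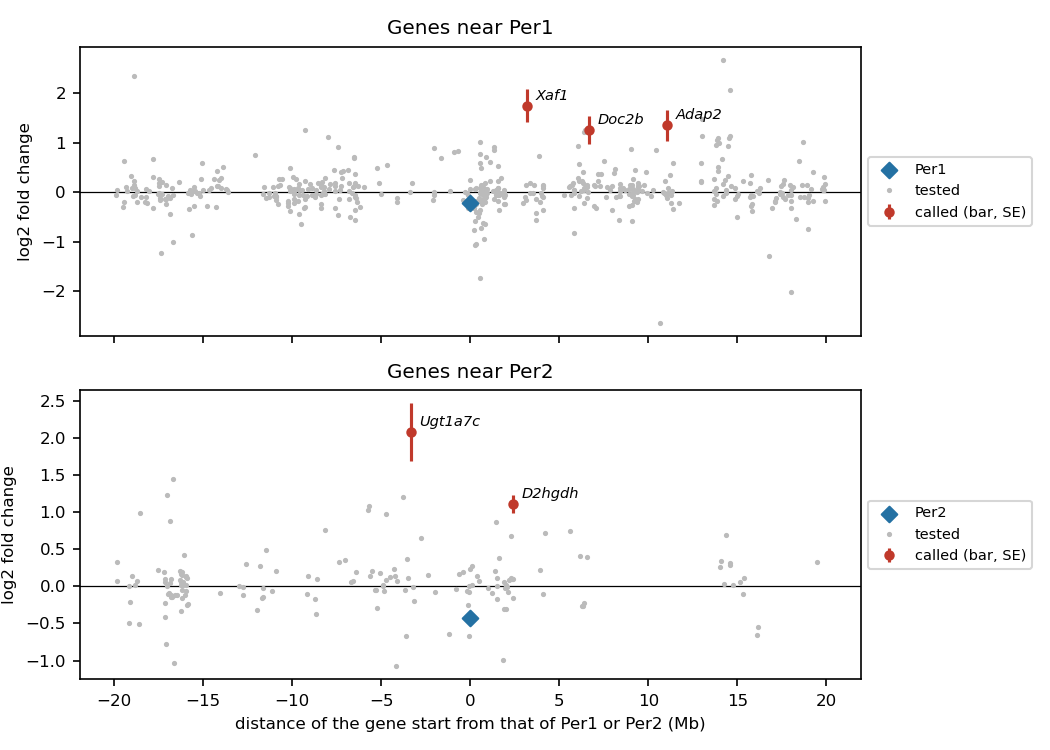
Log2 difference between Per1-/- cells and cells labelled Per2-/- on day 4 against the distance in Mb of each tested gene within 20 Mb of the start of Per1 (top, 507 genes) or Per2 (bottom, 165 genes), with Per1 and Per2 as blue diamonds and called genes in red with a bar of 1 SE. Red points are Xaf1, Doc2b and Adap2 at 3.21, 6.67 and 11.1 Mb from Per1, and Ugt1a7c and D2hgdh at -3.32 and 2.41 Mb from Per2.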

How the data were processed

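RNA-seq of 27 libraries was used, and grouped by the genotype, day and replicate number of the sample labels. The authors aligned reads to GRCm38 with HISAT2 2.0.5, counted them on genes with featureCounts 1.5.0-p3, and deposited FPKM with gene lengths for 54532 genes. All deposited FPKM values gave whole fragments (tolerance 0.01) from the gene lengths, and 0 sample columns were left unused. Genes averaging 0.5 FPKM or more across all 27 libraries (14932) entered the test by limma 3.58.1 in R 4.3.3 (9 groups, mean-variance trend, pseudocount 0.1) and Benjamini-Hochberg adjustment over these genes. Calls needed an adjusted p no higher than 0.05 with a log2 fold change no smaller than 0.58 in size. The procedure was tested on simulated data. Alternatives included voom weights on the fragments, other filters, scalings and pseudocounts, and each library left out. Named genes were Per1, Per2, Pou3f2, Myt1l, the called genes, the 15 largest differences in each direction with all values, the called and lowest-p members of gene lists, 6 macrophage genes, and called genes near Per1 and Per2. Some genes that this rule covers are not reported here. Xist was chosen after its values were seen, as was Gm42778. The comparison and gene lists were chosen with earlier results of these data known, and the functional groups were assigned to the called genes after the calls. The main fit took replicate numbers as names only. Between the genotypes, equal numbers did not mark libraries that deviate alike. Within a genotype, libraries of equal number correlated above 0 across days, as given below. Figures and summaries were made in Python 3.11.15 (numpy 2.4.6, pandas 2.3.3, matplotlib 3.10.9).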

Additional observations from a re-analysis of the deposited data

How the results depend on the processing

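All 83 called genes kept their direction in every alternative fit in which they had a value, while the counts of calls moved. The 66 higher and 17 lower calls became 164 and 27 with a pseudocount of 1, 180 and 7 with only the 9 libraries of day 4, 9 and 10 with a common FPKM sum, 231 and 35 with voom weights, 231 and 11 with voom weights on day 4 alone, 382 and 219 with array weights, and 9 and 1 with the macrophage marker covariate. The higher calls were 101 by adjusted p alone. The lower calls were 11 with a pseudocount of 0.01, 39 with no filter on low values and 3 with only the 6 libraries. Leaving out 1 library gave 6 to 56 higher and 0 to 47 lower calls. A replicate block gave 58 higher and 5 lower calls, but libraries with the same number correlated at -0.08, -0.02 and -0.04 between the genotypes. Within a genotype, libraries of day 4 and of another day that share a number correlated at 0.035 to 0.284, not all above 0.1. Those with different numbers correlated at -0.204 to 0.088. The fit over 27 libraries treats all of them as independent, also in the tests of change between days. The share of calls that were higher, 79.5%, was 61.4% without a filter, 63.6% with array weights and 96.3% with day 4 alone.

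On day 2 the 11 calls became 18 with the replicate block, 5 with a common FPKM sum, 7 with voom weights, 566 with array weights and 5 with the covariate, and 1 to 7 without single libraries. The 3 calls of day 0 became 7 with a pseudocount of 0.01, 9 without a filter, 1 with the replicate block, 0 with array weights and 0 to 5 without single libraries. The change of the difference from day 0 to day 4 had 0 calls, but 1 with a pseudocount of 0.01, 13 without a filter and 0 to 8 without single libraries, and 0 with genotype and replicate as a block over days (1237 at an unadjusted p under 0.05). That from day 2 had 14 without a filter, 3 with array weights, 0 without single libraries and 0 with that block (416 at an unadjusted p under 0.05). The log2 difference of Per1 was -0.34 to -0.11, and that of Per2 -0.52 to -0.31, without single libraries.

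Log2 differences turned in direction without single libraries for Myt1l (-0.10 to 0.41, below 0 without replicate 1 or 3 labelled Per2-/-) and the glial gene Sox10 (-0.035 to 0.82, the first without its replicate 3). With the covariate they turned for Itgam (-0.25), Tnf (-0.31), Kdr (-0.036) and Slc1a3 (0.23), and with array weights for Aldh1l1 (-0.21). None of these was called, and the cause was not tested. Depth limits genes of low level, and 2 called genes had under 3 fragments in a library.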
